A study of Sus scrofa with 16 samples.

Results

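The transcription factors *GATA4*, *GATA6*, *NKX2-5*, *TBX5*, *TBX20*, *HAND2*, *MEF2A*, *MEF2C*, *MEIS1* and *MEIS2* specify the cardiac lineage in the embryo and maintain the cardiomyocyte (CM) program after birth. They were chosen by symbol, and all 10 were present among the 22629 genes of the estimated count and TPM tables. Myocardial RNA was sequenced from White Yorkshire-Landrace farm pigs operated on at 1 month of age and examined 4 weeks later. Ischemia/reperfusion (IR) pigs had the left anterior descending artery occluded for 1 h and reperfused, and sham pigs had the same surgery with no occlusion. There were 4 pigs per surgery (2 females, 2 males), and from every left ventricle a scar zone piece and a border zone piece were taken, giving 16 samples from 8 pigs. Scar zone pieces were cut just below the ligature and mix scar with surviving muscle, and in sham pigs the name stands for the matching site, where there was no scar. No allele or transgene was involved. Within 1 zone each pig gave 1 library, so the p-values of tests within a zone measure the spread between pigs. Tests across zones treated the 2 libraries of a pig as separate unless a replicate block is named. With the block, they measure the spread of differences within pigs.

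These factors work as a network. GATA factors, T-box factors and the homeodomain protein NKX2-5 bind DNA next to each other and activate one another as well as the genes of contraction and conduction. HAND2 is a basic helix-loop-helix factor of the right ventricle, the outflow tract and the epicardium, MEF2 proteins are MADS-box factors of striated muscle, and MEIS proteins are TALE homeodomain cofactors, of which MEIS1 restrains CM proliferation after birth. Several of the members are also made by non-muscle cells of the heart, GATA4 and GATA6 among them, and a bulk sample does not say which cells made the RNA.

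Estimated counts summed to 15427663 to 49045206 per sample, with a median of 21822696, and 3 counts corresponded to 0.0612 to 0.194 CPM, that is, counts divided by the library total. CPM values of genes below were also scaled by TMM, which sets most genes equal between libraries. All 10 members passed the filter on low counts in every comparison. Troponin T (*TNNT2*) in the scar zone lay at 10200 ± 1170 TPM in IR pigs and 10900 ± 2150 TPM in sham pigs (SD, n = 4), so the CM marker was high in both. Before the results, 3 libraries must be named. The scar zone libraries of IR pigs 9 and 11, both males, stood apart in the mean log2 CPM of 10 fibroblast markers, at 9.69 and 9.96 against 7.66 to 8.24 in the other 14 libraries. In the same 2 libraries the mean over the 6 of 9 epicardial markers with an entry was 2.73 and 2.83 against 1.17 to 2.17, and the mean over 10 leucocyte markers was 5.13 and 5.02 against 3.18 to 4.54. The mean over 9 smooth muscle and pericyte markers was also above all others, at 6.90 and 7.03 against 6.02 to 6.86, as was the low mean over the 6 of 7 atrial and conduction myocyte markers with an entry, at 0.05 to 0.42 against -1.85 to 0.04. Both male IR pigs are these 2 pigs, so in the IR scar zone sex and this marker level cannot be told apart. In IR pig 14, which is female, the scar zone sample held the Y-linked transcript *DDX3Y* at 4.49 CPM, where the remaining libraries of females held 0.389 to 1.23 CPM and those of males 68.4 to 103 CPM.

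Levels were compared between genes as TPM, which is scaled for transcript length. *HAND2* had the highest mean, 97.8 ± 28.4 TPM over the 16 libraries (SD; 65.6 to 149). *GATA6* followed at 69.8 ± 10.6 TPM and *GATA4* at 40.8 ± 5.32 TPM. *GATA6* exceeded *GATA4* in 16 of 16 libraries and *HAND2* exceeded *GATA6* in 13, which were all 8 sham libraries and 5 of 8 IR libraries. Among scar zone libraries of IR pigs *HAND2* at 77.7 ± 16.9 TPM and *GATA6* at 75.6 ± 8.83 TPM (SD, n = 4) could not be separated. *TBX20*, a T-box factor needed for adult CM function, lay at 37.0 ± 7.73 TPM, and *MEF2A* at 36.1 ± 8.00 TPM. These neighbors could not be separated, with *TBX20* above *MEF2A* in 8 of 16 libraries. *TBX5*, the T-box factor of the left ventricle, atria and conduction system, lay at 24.4 ± 6 TPM, and *MEF2C* at 21.4 ± 3.30 TPM. *TBX5* was the higher of that pair in 12 libraries. *MEIS2* at 17.6 ± 2.82 TPM and *NKX2-5* at 16.3 ± 3.95 TPM also shared a level, the first being higher in 9 libraries. *MEIS1* lay far below the others, at 0.58 ± 0.90 TPM, with 9 to 463 estimated counts per library.

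**Figure D1:**
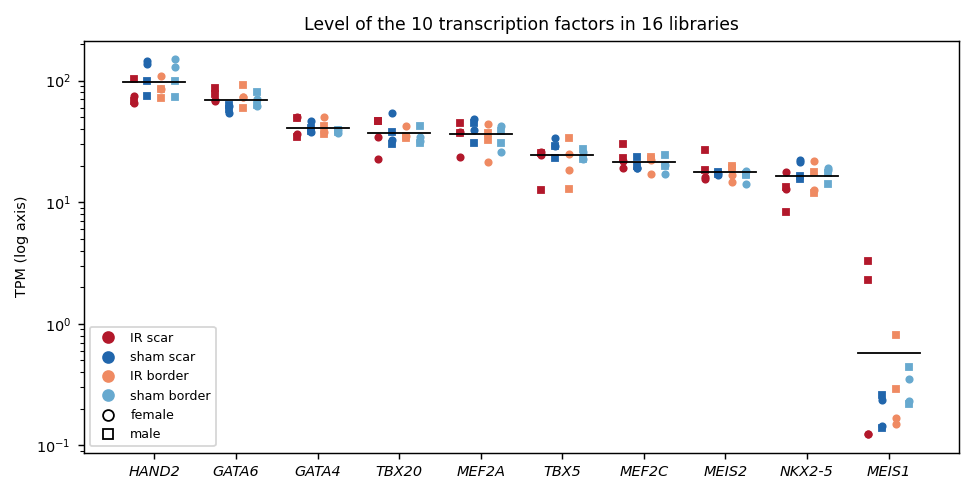
TPM of the 10 members on a log axis, 1 point per library, coloured by group, with circles for female and squares for male pigs and a line at the mean of 16 libraries. *HAND2* is highest at a mean of 97.8 TPM, and *MEIS1* lies lowest and spreads most, from 0.124 to 3.30 TPM.

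Variation between libraries was unequal. On the CPM scale the highest library held 24.0 times the lowest for *MEIS1*, 3.13 times for *NKX2-5*, 2.83 times for *TBX5* and 2.66 times for *HAND2*. For *MEIS2* that ratio was 1.43, for *MEF2C* 1.5, and for *GATA4* and *MEF2A* 1.65. The 4 members that varied most are those described first below.

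Within a zone, edgeR's quasi-likelihood test compared IR with sham pigs, and p-values were adjusted by Benjamini-Hochberg across every gene tested. Calls needed an adjusted p of at most 0.05 with a fold change of 2 or more, and members with an unadjusted p of at most 0.05 are counted beside. In the scar zone *HAND2*, *NKX2-5* and *TBX5* had lower means in IR pigs, *MEIS1* had a higher mean that came from 2 of the 4 pigs, and the GATA, MEF2 and MEIS2 transcripts lay close to their sham levels. None of the 10 members was called, as was none of the 14023 genes (0%). DESeq2 also called 0 members, with 52 genes called in all. At the unadjusted p, 3 members passed, *MEIS1* higher and *HAND2* and *NKX2-5* lower, against 11.2% of all genes tested, and 4 members passed with DESeq2 against 12.8%. With each pig left out in turn 1 to 4 members passed, the fewest without pig 11. The median log2 difference of the members was -0.10, and that of all genes 0.03. A bulk sample does not separate fewer cells of a type from less RNA per cell.

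*HAND2* lay at 31.0, 28.2, 24.9 and 28.6 CPM in the scar zone of IR pigs 2, 9, 11 and 14, and at 55.2, 66.2, 41.4 and 32.0 CPM in sham pigs 4, 5, 12 and 13. On this scale every IR pig lay below every sham pig, and the sham pigs spread widely, with the females above the males. No other member was without overlap between IR and sham pigs in scar zone CPM, and 4.86% of all genes were. On TPM *HAND2* overlapped, at 65.6 to 102 TPM in IR pigs and 74.0 to 144 TPM in sham pigs. There *GATA6* was the member without overlap, at 68.2 to 87.4 against 54.1 to 63.3 TPM, as were 4.04% of all genes, so the member that separated the groups depended on the scale. The log2 difference was -0.80 (standard error 0.21, 95% interval -1.28 to -0.32), a 1.74-fold lower level, with an unadjusted edgeR p of 0.00408 and an adjusted p of 0.438. With each pig left out in turn it stayed between -0.96 and -0.62 with an unadjusted p of at most 0.05 in 8 of 8 fits, and without pigs 9 and 11 together it was -0.72 (edgeR, unadjusted p = 0.0315). Fitted with limma on log2(TPM + 1), it was -0.52 (unadjusted p = 0.0426, adjusted p = 0.596). HAND2 is known to be needed for growth of the ventricular muscle and of the epicardium in the embryo.

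*NKX2-5*, the homeodomain factor that marks the CM lineage from its start, lay at 79.7, 40.6, 33.2 and 61.4 CPM in the scar zone of IR pigs 2, 9, 11 and 14, against 93.8, 104, 72.4 and 73.7 CPM in sham pigs 4, 5, 12 and 13. Pigs 9 and 11 were lowest of the 8, and pig 2 lay within the sham range. The log2 difference was -0.69 (standard error 0.27, interval -1.29 to -0.09), with an unadjusted edgeR p of 0.0286 and an adjusted p of 0.438. It was -0.29 without pigs 9 and 11 (edgeR, unadjusted p = 0.179), a fit that sets female IR pigs against sham pigs of both sexes. Female IR pigs lay at 79.7 and 61.4 CPM against 93.8 and 104 CPM in female shams. Male IR pigs, the 2 with high fibroblast marker levels, lay at 40.6 and 33.2 CPM against 72.4 and 73.7 CPM in male shams. The shares of sex and of this marker level in the difference cannot be told apart. With sex as a covariate it was -0.74 (edgeR, unadjusted p = 0.000784, adjusted p = 0.169).

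*TBX5* lay at 38.6, 25.3, 16.6 and 38.6 CPM in the scar zone of IR pigs 2, 9, 11 and 14, and at 46.9, 46.6, 42.1 and 36.4 CPM in sham pigs 4, 5, 12 and 13. The IR females lay above the lowest sham pig, the male pig 13, and below the other sham pigs. Pigs 9 and 11 lay below all sham pigs. The log2 difference was -0.54 (standard error 0.25, edgeR unadjusted p = 0.058, adjusted p = 0.449). It was -0.16 without pigs 9 and 11, where female IR pigs are set against sham pigs of both sexes. *TBX20*, which carries the same kind of DNA-binding domain, lay at 49.6 ± 12.1 CPM in IR pigs and 58.2 ± 12.4 CPM in shams (SD, n = 4), a log2 difference of -0.24 (interval -0.70 to 0.22). This was -0.06 on TPM by limma, and -0.37 to -0.09 with each pig left out, the extremes without pigs 11 and 4.

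*MEIS1* lay at 0.578, 7.25, 13.9 and 0.613 CPM in the scar zone of IR pigs 2, 9, 11 and 14, and at 1.04, 0.734, 0.651 and 1.30 CPM in sham pigs 4, 5, 12 and 13. The high values belonged to pigs 9 and 11 alone, and the female IR pigs 2 and 14 lay below all sham pigs. The log2 difference of 2.59 (standard error 0.92, edgeR unadjusted p = 0.0187, adjusted p = 0.438) was -0.65 when both were left out (edgeR, unadjusted p = 0.211). The 9 and 10 estimated counts of pigs 14 and 2 are few, and leave their values imprecise. MEIS1 is known in the postnatal heart for holding CMs out of the cell cycle, and non-muscle cells make it as well.

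**Figure D2:**
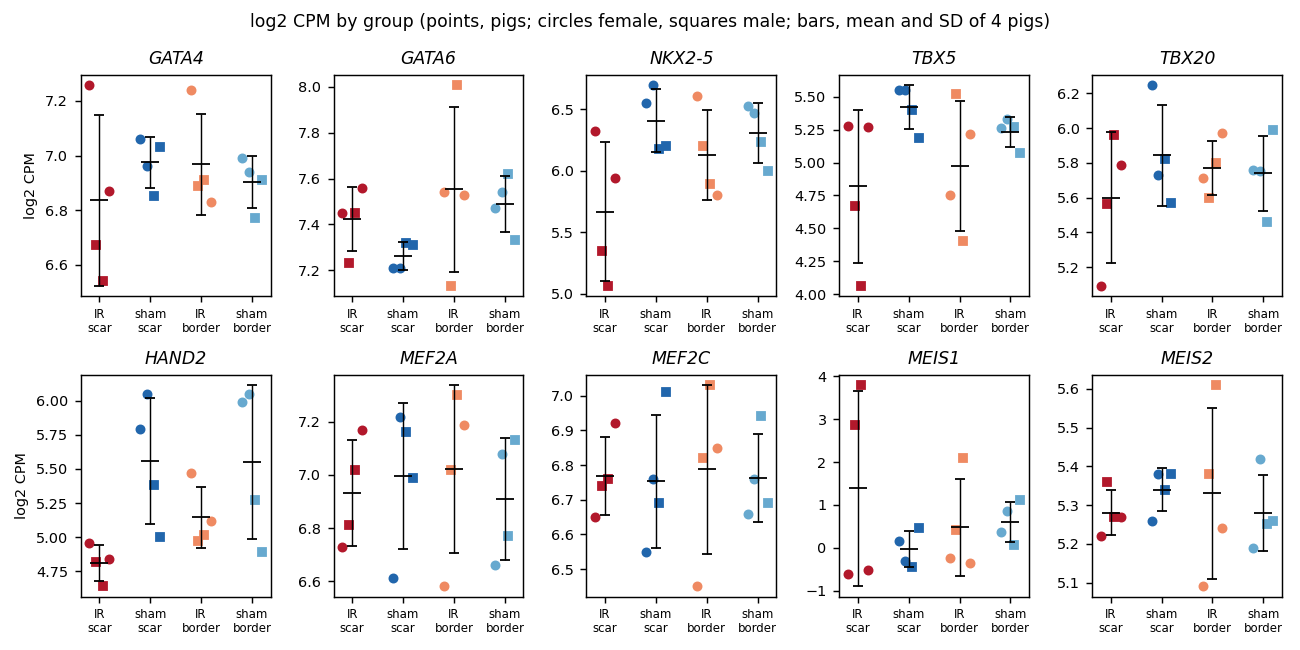
log2 CPM of each member in the 4 groups, 1 point per pig (circles female, squares male), with the mean and SD of 4 pigs. In the scar zone the *HAND2* values of IR and sham pigs do not overlap, and *MEIS1* is high in the 2 male IR pigs at 7.25 and 13.9 CPM.

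Of the zinc finger factors, *GATA6* lay at 172 ± 16.0 CPM in the scar zone of IR pigs and at 153 ± 6.37 CPM in that of sham pigs (SD, n = 4), a log2 difference of 0.16 (interval -0.08 to 0.40). *GATA4*, its partner in driving natriuretic peptide and contractile genes, lay at 116 ± 26.5 and 126 ± 7.87 CPM, a log2 difference of -0.12 (interval -0.48 to 0.24). Pig 2 was the highest of the 8 for *GATA4* at 153 CPM and pigs 9 and 11 the lowest at 102 and 93.0 CPM. The MADS-box factors were level, *MEF2C* with a log2 difference of 0.00 (interval -0.28 to 0.28) and *MEF2A* with -0.08 (interval -0.44 to 0.27). *MEIS2* had a difference of -0.07 (interval -0.28 to 0.14). For these 5 members the intervals lie within a 1.5-fold difference in either direction. On TPM, where limma was fitted on log2(TPM + 1), the log2 differences were 0.33 for *GATA6* (unadjusted p = 0.0278, adjusted p = 0.596), 0.04 for *GATA4* and 0.12 for *MEIS2*, so the direction of the last pair depended on the scale.

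In the border zone the members lay closer together. None of the 10 was called and none had an unadjusted p of at most 0.05, against 0% and 3.78% of the 13728 genes tested (edgeR quasi-likelihood test, and DESeq2 called 0 members and 2 genes). The log2 differences ran from -0.47 to 0.24 with a median of 0.05, where the median of all genes was 0. No member was without overlap between IR and sham pigs, on CPM (2.03% of all genes) or on TPM (1.73%). *HAND2* again had the lowest value, at 44.3, 31.3, 32.3 and 34.8 CPM in IR pigs 2, 9, 11 and 14 and 63.4, 66.1, 38.5 and 29.6 CPM in sham pigs 4, 5, 12 and 13. The lowest of the 8 was a sham pig, so the groups overlapped. The log2 difference was -0.47 (standard error 0.25, edgeR unadjusted p = 0.090, adjusted p = 0.988), and -0.40 with sex as a covariate (edgeR, unadjusted p = 0.0345). Over both zones *HAND2* ran from 55.2 to 66.2 CPM in the 4 libraries of female sham pigs, from 29.6 to 41.4 CPM in male sham pigs, and from 28.6 to 44.3 and 24.9 to 32.3 CPM in female and male IR pigs. The females differed between surgeries without overlap in either zone, while the males did so in the scar zone and overlapped in the border zone. Each of these splits sets 2 pigs against 2, where a lack of overlap is easily reached, and both zones come from the same pigs. Its share over all genes is not given here, and a difference between the sexes was not tested.

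For *NKX2-5* the border zone means were 71.6 ± 19.2 CPM in IR pigs and 79.8 ± 13 CPM in shams (SD, n = 4), a log2 difference of -0.16 (interval -0.59 to 0.28). *TBX5* lay at 26.9, 45.7, 21.1 and 37.2 CPM in the border zone of IR pigs 2, 9, 11 and 14, and at 33.5 to 40.3 CPM in sham pigs, a log2 difference of -0.20 (interval -0.67 to 0.27) that was -0.40 without pig 9 and -0.04 without pig 11. Pig 9, low in its scar zone, was the highest of the 8 in its border zone, while pig 11 was lowest in both. *MEIS1* stood at 4.18 CPM in the border zone of pig 11 and at 0.701 to 1.25 CPM in the other IR pigs, with 0.972 to 2.08 CPM in sham pigs. Its log2 difference of 0.24 was -0.70 without pig 11. *GATA6* also peaked in that library, at 257 CPM, above the 140 to 197 CPM of the other border zone libraries. The remaining members differed by 0.03 (*TBX20*), 0.04 (*MEF2C*), 0.06 (*MEIS2*), 0.07 (*GATA4*) and 0.13 (*MEF2A*) on the log2 scale.

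CM content was approximated by the mean log2 CPM over 12 sarcomere genes (*TNNT2*, *TNNI3*, *TNNC1*, *MYBPC3*, *ACTN2*, *MYL2*, *MYL3*, *MYH7*, *MYOZ2*, *TCAP*, *CSRP3* and *MYOM1*), called the CM index here. In the scar zone the index was 11.97, 11.41, 11.75 and 11.98 in IR pigs 2, 9, 11 and 14 and 11.94, 12.16, 11.88 and 11.90 in sham pigs 4, 5, 12 and 13. Pigs 9 and 11 were the lowest of the 8, and the other IR pigs lay within the sham range. The means of 11.78 ± 0.27 and 11.97 ± 0.13 (SD, n = 4) differed by -0.19, which the spread between pigs covered (two-sided exact permutation test, p = 0.286, where the smallest possible p is 0.0286). In the border zone the index was 12.07 ± 0.15 in IR and 12.04 ± 0.21 in sham pigs (two-sided exact permutation test, p = 0.886). A second index, over 13 CM genes outside the sarcomere such as *RYR2* and *ATP2A2*, was also lowest in the scar zone of pigs 9 and 11, at 8.95 and 9.29, with 9.41 to 9.73 in the other 14 libraries.

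To describe the members relative to CM content, the libraries were rescaled so that the 12 sarcomere genes had the same mean in every library, and the edgeR test was repeated. The 12 genes did not move together. Their scar zone log2 differences under this scaling ran from -0.34 for *MYL3* to 0.37 for *CSRP3*. In the scar zone this scaling moved the median log2 difference of all genes from 0.03 to 0.24, and among genes with an unadjusted p of at most 0.05 the split went from 922 higher and 650 lower to 1551 higher and 164 lower. None of the 10 members was called (0% of 14023 genes), and DESeq2 called 0 members and 57 of 13981 genes (0.408%). At the unadjusted p 4 members passed, *MEIS1* and *GATA6* higher and *HAND2* and *NKX2-5* lower, against 12.2% of all genes, each with an edgeR adjusted p of 0.401. With each pig left out in turn 1 to 4 passed, the fewest without pig 4, 5 or 11. *MEIS1* differed by 2.91, *HAND2* by -0.56, *NKX2-5* by -0.52, *TBX5* by -0.37 and *GATA6* by 0.35 on the log2 scale. Relative to the shifted median these were 2.66, -0.81, -0.76, -0.61 and 0.11, so *GATA6* lay near the middle of all genes. The signs of *GATA4*, *MEF2A* and *MEIS2*, negative under TMM scaling, were positive here at 0.06, 0.13 and 0.16, and each lay below the shifted median.

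**Figure D3:**
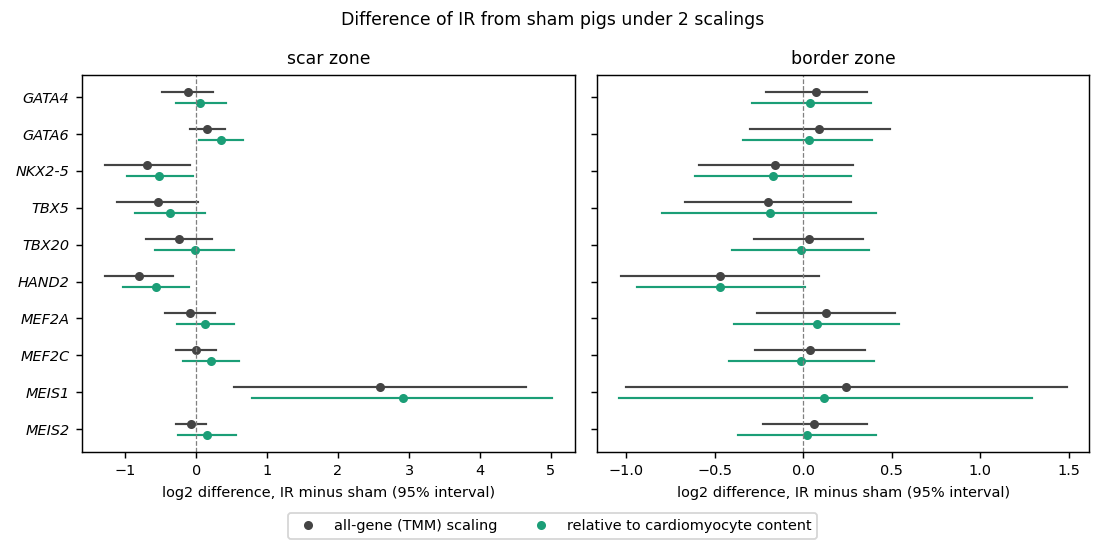
log2 difference of IR from sham pigs (points) with its 95% interval (lines) for each member, in grey under TMM scaling and in green relative to CM content, for the scar zone (left) and the border zone (right, with its own axis). *HAND2* and *NKX2-5* lie below 0 and *MEIS1* above 0 in the scar zone under both scalings, while all border zone intervals include 0.

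Per library, *HAND2* log2 CPM minus the CM index was -7.02, -6.59, -7.11 and -7.14 in the scar zone of IR pigs 2, 9, 11 and 14, and -6.15, -6.10, -6.51 and -6.90 in sham pigs 4, 5, 12 and 13. Pig 9, with the lowest CM index, now lay among the sham pigs, and the other IR pigs lay below all of them. Leaving out each pig gave *HAND2* differences relative to CM content from -0.71 to -0.46, with an unadjusted edgeR p of at most 0.05 in 4 of 8 fits, and was -0.70 without pigs 9 and 11 (edgeR, unadjusted p = 0.0163). On this scale *GATA6* was the member without overlap, from -4.53 to -4.18 in IR and from -4.94 to -4.57 in sham pigs, and 4.17% of all genes had none. *NKX2-5* lay at -5.66, -6.07, -6.70 and -6.04 in IR pigs 2, 9, 11 and 14 and at -5.39, -5.45, -5.71 and -5.69 in sham pigs 4, 5, 12 and 13. Only pig 2 of the IR pigs lay within the sham range, above the male sham pigs 12 and 13 and below the female sham pigs 4 and 5. Without pigs 9 and 11 the difference was -0.28 (edgeR, unadjusted p = 0.124), with female IR pigs set against sham pigs of both sexes.

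In the border zone the same scaling gave 0 members called and 0 at the unadjusted p, against 0% and 2.08% of 13728 genes (edgeR, and 0 members and 2 genes called by DESeq2). *HAND2* differed by -0.47 (interval -0.94 to 0.01, edgeR unadjusted p = 0.0548, adjusted p = 1), and the other members by -0.19 to 0.12. No member was without overlap on this scale, and 1.14% of all genes were.

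Whether members varied with CM content among pigs of the same surgery was tested as the slope of log2 level on the CM index, with surgery in the model. In the scar zone *NKX2-5* had a slope of 1.53 (standard error 0.53, edgeR unadjusted p = 0.0196, adjusted p = 0.201). This slope was 0.21 with sex as a covariate (edgeR, adjusted p = 0.954), and ran from 1.09 to 3.11 with each pig left out, the highest without pig 9. *TBX5* followed with 1.10 (edgeR, unadjusted p = 0.0947) and *MEIS1* had the opposite sign at -5.01 (edgeR, unadjusted p = 0.106). With each pig left out *TBX5* ran from 0.87 (pig 2) to 2.78 (pig 9), with an unadjusted p of at most 0.05 in 2 of 8 fits, and *MEIS1* from -10.06 (pig 9) to -2.83 (pig 2), also in 2 of 8. The slopes of *HAND2* (0.65), *GATA4* (0.63), *MEF2A* (0.38), *GATA6* (0.34), *MEF2C* (0.04), *MEIS2* (-0.14) and *TBX20* (-0.21) all had unadjusted p-values above the threshold. Single pigs moved these too, *HAND2* from 0.25 (pig 5) to 2.22 (pig 9), *GATA4* from 0.24 (pig 2) to 1.07 (pig 9) and *MEF2A* from 0.16 (pig 14) to 0.67 (pig 2). No member was called, against 0.00713% of 14023 genes, which is the single gene *LYZ*, named after its values were seen. At the unadjusted p 1 member passed, against 17.2% of all genes, and DESeq2 called 0 members where it called 928 genes (6.62%), with 2 members at its unadjusted p against 19.3%. Most of the spread of the index came from pigs 9 and 11, since the other scar zone libraries span 11.88 to 12.16. Without both pigs the slopes were 1.81 for *NKX2-5* (edgeR, unadjusted p = 0.0666), 2.94 for *HAND2* (edgeR, unadjusted p = 0.0206) and -1.41 for *MEIS1* (edgeR, unadjusted p = 0.588), and *MEIS1* was called at -5.54 without pig 11 alone (edgeR, adjusted p = 0.0432), a fit in which 291 of 14126 genes (2.06%) were called. In the border zone no member passed, against 0% called and 9.04% at the unadjusted p among 13728 genes (edgeR), or 0 members and 163 genes (1.19%) called by DESeq2, and *HAND2* came nearest with a slope of 1.56 (edgeR, unadjusted p = 0.0525). Within pigs, in a fit of all 16 libraries where the pig served as replicate block, the slope was 1.24 for *NKX2-5* (edgeR, unadjusted p = 0.0102, adjusted p = 0.131), -1.10 for *TBX20* (unadjusted p = 0.039) and -3.91 for *MEIS1* (unadjusted p = 0.00746). In that fit 0 members were called against 0.539% of 14278 genes, and 3 passed at the unadjusted p against 19%.

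**Figure D4:**
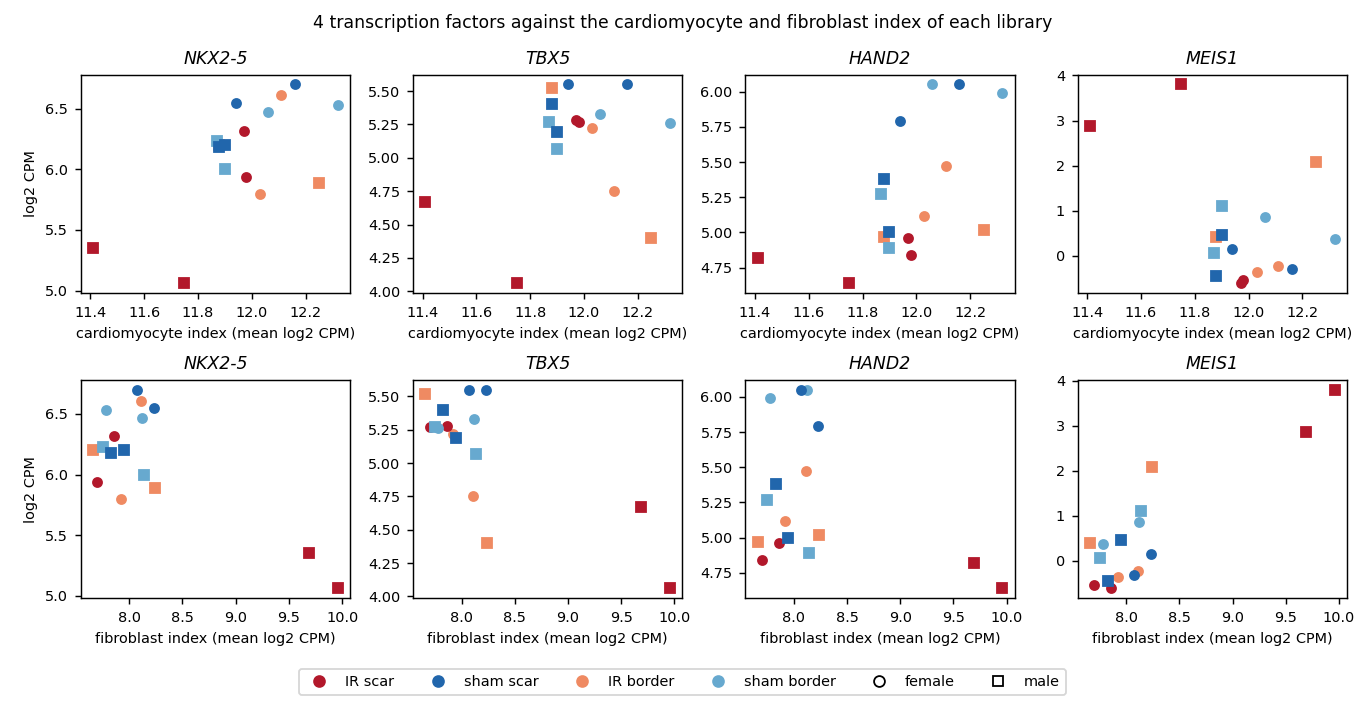
log2 CPM of *NKX2-5*, *TBX5*, *HAND2* and *MEIS1* in 16 libraries against the CM index (upper row) and the fibroblast index (lower row), both as mean log2 CPM, coloured by group with circles for female and squares for male pigs. The scar zone libraries of IR pigs 9 and 11, at a fibroblast index of 9.69 and 9.96, lie apart with high *MEIS1* and low *NKX2-5*.

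In these 2 libraries the CPM of *MEIS1* lay above, and that of *NKX2-5*, *GATA4* and *HAND2* below, all 14 other libraries. The gap was small for *HAND2*, at 28.2 and 24.9 CPM against a lowest other value of 28.6 CPM. The 2 libraries were singled out by their marker levels, and the share of all genes lying apart in them is not given here. For *NKX2-5* they held 40.6 and 33.2 CPM against 55.5 to 104 CPM, and for *MEIS1* 7.25 and 13.9 CPM against 0.578 to 4.18 CPM. *TBX20*, *MEF2A*, *MEF2C*, *MEIS2* and *GATA6* in the same libraries lay within the range of the others, for instance *MEF2C* at 107 and 108 CPM against 87.6 to 131 CPM. *TBX5* did so in part, at 25.3 and 16.6 CPM against 21.1 to 46.9 CPM. The part of fibroblasts, epicardial cells, smooth muscle cells, leucocytes and atrial or conduction myocytes in these values was not tested.

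Scar and border zones of the same hearts were compared next. In the scar zone of IR pigs, log2 CPM of *HAND2* lay below the border zone value by 0.51, 0.15, 0.37 and 0.28 in pigs 2, 9, 11 and 14, while sham pigs 4, 5, 12 and 13 had differences of -0.20, 0.00, 0.11 and 0.11. All 4 IR pigs pointed the same way, and the smallest IR difference lay inside the sham range. The log2 difference in IR pigs was -0.34 (standard error 0.14, edgeR unadjusted p = 0.0387, adjusted p = 0.989), and -0.33 when the pig was taken as a replicate block (edgeR, unadjusted p = 0.00819, adjusted p = 0.431). *MEIS1* was higher in the scar zone by 2.46 in pig 9 and 1.71 in pig 11, and differed by -0.38 and -0.17 in pigs 2 and 14. In sham pigs 4, 5, 12 and 13 it was -0.21, -1.16, -0.53 and -0.64, so it was lower in the scar zone site of every sham pig and of both female IR pigs. Those *MEIS1* values rest on few estimated counts, for instance 10 in the scar and 16 in the border zone of IR pig 2, and 18 and 20 in sham pig 12. *NKX2-5* was lower in the scar zone of pigs 9 and 11, by 0.86 and 0.84, and differed by -0.29 and 0.15 in pigs 2 and 14 and by -0.05 to 0.23 in sham pigs.

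In IR pigs 0 of 10 members were called between zones (0% of 14170 genes), and 1 passed at the unadjusted p against 4.35% of all genes, or 3 with the replicate block (*HAND2*, *NKX2-5* and *MEIS1*) against 11.3%. In sham pigs 0 were called (0% of 13803 genes), and 1 passed at the unadjusted p against 0.819%, or 3 with the block against 4.77%. The member passing without the block was *GATA6*, which was lower at the scar zone site of sham pigs 4, 5, 12 and 13 by 0.27, 0.32, 0.30 and 0.02, a log2 difference of -0.23 (edgeR, unadjusted p = 0.0304, adjusted p = 1). The other members with the block were *TBX5* at 0.19 and *MEIS1* at -0.68. The direct test of whether the IR effect differed between zones gave 0 members called and 0 at the unadjusted p, against 0% and 2.22% of 14278 genes, with *MEIS1* nearest at 2.36 (standard error 1.15, edgeR unadjusted p = 0.0568, adjusted p = 1). With the replicate block *MEIS1* (2.01, edgeR unadjusted p = 0.00723), *HAND2* (-0.33, unadjusted p = 0.0143) and *NKX2-5* (-0.57, unadjusted p = 0.0198) passed at the unadjusted p, each with an edgeR adjusted p of 0.702, against 6.99% of all genes. DESeq2 called 0 members in these 3 comparisons, with 4, 1 and 0 genes called.

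**Figure D5:**
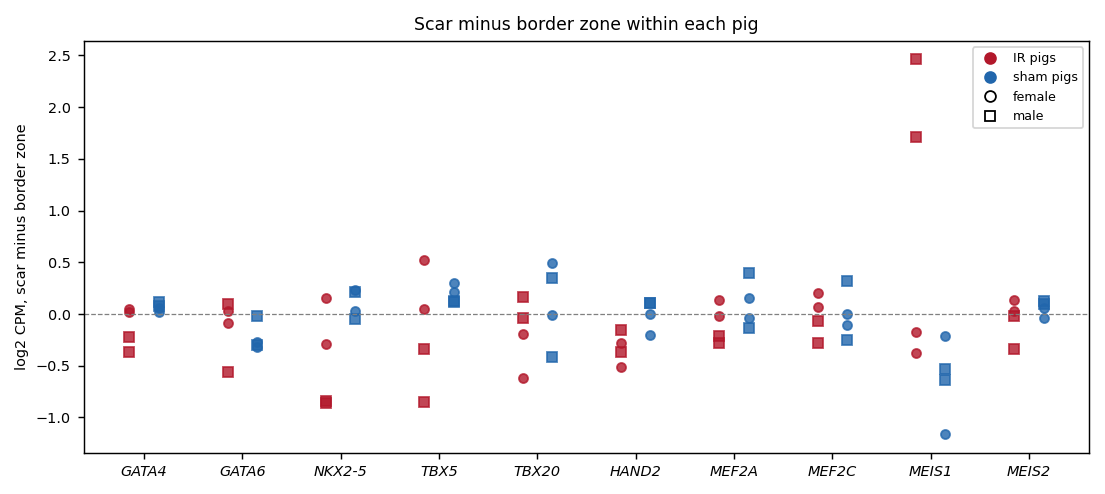
Difference of log2 CPM between the scar and the border zone of each pig, for the 10 members, in red for IR and in blue for sham pigs, with circles for female and squares for male pigs. *HAND2* is below 0 in all 4 IR pigs, and *MEIS1* is at 2.46 and 1.71 in the 2 male IR pigs and below 0 in the other 6 pigs.

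The genes around these factors were taken from lists of related transcription factors, cofactors and target genes. Of 38 related factors 36 had an entry and 30 were tested, 0 were called in the scar zone, and at the unadjusted p 2 were higher and 5 lower in IR pigs, with a median log2 difference of -0.10 where all genes had 0.03. Of all 14023 genes, 922 were higher and 650 lower (11.2%). *KLF13*, a partner of GATA4, lay at 8.16 ± 1.08 CPM in IR pigs and 12.6 ± 2.96 CPM in shams (SD, n = 4), a log2 difference of -0.64. *IRX4*, the ventricular Iroquois factor, lay at 6.02 ± 1.86 and 9.78 ± 2.87 CPM, a difference of -0.71. *MEIS3*, the third MEIS gene, lay at 5.80 ± 2.23 and 3.49 ± 0.237 CPM, a difference of 0.74, with an edgeR adjusted p of 0.438 for each of these genes. Relative to CM content the same list had 4 higher and 0 lower at the unadjusted p, against 12.2% of all genes (1551 higher and 164 lower), whose median that scaling moved from 0.03 to 0.24. In the border zone 0 were higher and 2 lower, against 3.78% of all genes, the T-box repressors *TBX3* (8.28 ± 1.35 against 12.5 ± 3.82 CPM) and *TBX2* (16.0 ± 3.06 against 20.6 ± 0.947 CPM), both with an edgeR adjusted p of 0.988.

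All 26 cofactors were tested, and in the scar zone 0 were called, with 1 higher and 1 lower at the unadjusted p, against the same 11.2% of all genes, and a median log2 difference of -0.04. *MYOCD*, which encodes the SRF coactivator myocardin, lay at 29.8 ± 7.27 CPM in IR pigs and 41.3 ± 8.12 CPM in shams (SD, n = 4), a log2 difference of -0.48. *NFATC4*, a calcineurin-dependent partner of GATA4, lay at 21.2 ± 6.83 and 14 ± 2.25 CPM, a difference of 0.60. *HDAC5*, a class IIa deacetylase that represses MEF2, had a difference of -0.24 and an unadjusted p above the threshold. Relative to CM content 1 cofactor was higher and 0 lower, against 12.2% of all genes, of which 90.4% were higher. Of 26 cofactors in the border zone, 0 passed at the unadjusted p, against 3.78% of all genes.

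Of 32 target genes 27 had an entry and 25 were tested in the scar zone, with 0 called, 6 higher and 2 lower at the unadjusted p, against 11.2% of all genes, and a median log2 difference of -0.07. *NPPB*, the B-type natriuretic peptide gene activated by GATA4, lay at 343 ± 185 CPM in IR pigs and 34.0 ± 50.3 CPM in shams (SD, n = 4), a log2 difference of 3.33. *ANKRD1*, a stress-induced repeat protein of CMs, lay at 3480 ± 1240 and 1980 ± 421 CPM, a difference of 0.81. *KCNJ2*, the inward rectifier channel, lay at 71.4 ± 5.63 and 95 ± 10.3 CPM, a difference of -0.42. The edgeR adjusted p was 0.438 for each. Relative to CM content 7 target genes were higher and 0 lower, against the same 12.2% of all genes. In the border zone, not scaled by CM content, 0 of 24 were higher and 1 was lower, against 3.78% of all genes. That gene was the fetal troponin *TNNI1*, with a log2 difference of -1.43 (edgeR, adjusted p = 0.988).

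For each member the genes listed by symbol with the most similar log2 CPM over the 16 libraries were sought among 12135 genes. The libraries share pigs, and the highest of so many coefficients is large by selection, so the values are descriptive. *NKX2-5* was most like *SPG7*, a mitochondrial protease (Pearson r = 0.955), and *NDUFS6*, a complex I subunit (r = 0.95). *TBX5* was most like *RD3L* (r = 0.953) and *SBK2* (r = 0.95), and *HAND2* like *ANKRD9* (r = 0.928) and *INAFM2* (r = 0.926). *GATA4* was most like *NARF* (r = 0.94) and *METRNL* (r = 0.934). *MEIS1* was most like *BNC2*, a zinc finger factor of fibroblasts (r = 0.931), and *UBTD2* (r = 0.921). Without the scar zone libraries of pigs 9 and 11 these last coefficients were 0.78 and 0.784 over 14 libraries, and those of *NKX2-5* were 0.902 and 0.882. *TBX20*, *MEIS2* and *GATA6* had no gene as close, with *ZNF792* (r = 0.798), *CDH2* (r = 0.79) and *CPSF2* (r = 0.847) at the top. *MEF2A* and *MEF2C* were most like *UBQLN2* (r = 0.884) and *LRIF1* (r = 0.889).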

How the data were processed

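The authors sequenced polyadenylated RNA from stranded libraries, and the submitters' processing notes name Trimmomatic 0.33, HISAT2 2.0.5 and kallisto 0.43.1. The genome build is not given in the sources used here. The authors deposited estimated counts, in which kallisto divides reads shared by similar transcripts, and TPM scaled for transcript length and depth. Estimated counts were whole within 0.05 in 16 of 16 libraries for *GATA6*, *NKX2-5*, *TBX5*, *TBX20*, *HAND2* and *MEF2A*, and in 4 to 14 libraries for *GATA4*, *MEIS1*, *MEF2C* and *MEIS2*, so the latter carry some divided reads.

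The counts were rounded to whole numbers. In R 4.3.3, edgeR 4.0.16 was run with TMM scaling, filterByExpr (minimum count 10, minimum total 15), the quasi-likelihood test and Benjamini-Hochberg adjustment. log2 CPM used a prior count of 2. For levels relative to CM content, normalization factors equalized the mean log2 level of the 12 sarcomere genes. That list named 15 genes, and the 12 used are those reported here. Alternatives were DESeq2 1.42.0, upper-quartile and RLE scaling, no filter, sex as a covariate, a single fit, 1 factor of unwanted variation, limma 3.58.1 on log2(TPM + 1) and log2(TPM + 0.1), the second CM list, a replicate block and each pig left out. Leaving out pigs 9 and 11 together was chosen after seeing the data. It leaves only female IR pigs, while sham pigs of both sexes stay. Tests were checked on simulated data. RUVSeq, which the study used, was not used here.

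The replicate number is the pig, so pairing comes from the animal. Deviations from group means correlated between zones of the same pig at r = 0.354 to 0.692 in all 8 pigs, and between different pigs at a mean of -0.117 to -0.233, over 14278 genes. The values between different pigs largely follow from those of the same pig, since deviations cancel within a group, and are no separate evidence of pairing.

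Members and gene lists were chosen with earlier results of these data known. Named genes are the members, up to 3 genes of each list with the smallest unadjusted p per zone, and the 2 most similar genes per member. The 95% intervals of the log2 differences come from the edgeR fits and cover the spread between pigs, while the CPM of 3 counts covers counting error only.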

Additional observations from a re-analysis of the deposited data

How the results depend on the processing

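No member was called (adjusted p of at most 0.05 and a fold of at least 2) in any comparison under any setting, except *MEIS1* in the slope on the CM index in the scar zone without pig 11, where 1 member was called (lowest 0 and highest 1 over the fits with a pig left out). The replicate block left the members called at 0 in the interaction, in both zone comparisons and in the within-pig slope, and changed no other call. Sign changes are listed first for the members named singly in each comparison. With pigs 9 and 11 left out, differences that turned sign in the scar zone were *GATA4* 0.10 and *MEIS1* -0.65, relative to CM content *MEF2A* -0.05, *MEIS1* -0.66 and *MEIS2* -0.11, in the border zone *MEF2C* -0.10, *MEIS1* -1.02 and *MEIS2* -0.12, relative to CM content there *GATA6* -0.01 and *MEIS1* -1.08, between zones of IR pigs *MEIS1* -0.31 and *TBX5* 0.27, and in the interaction *TBX5* 0.07. On TPM (limma, both pseudocounts and without the filter), *GATA4* was 0.04 and *MEIS2* 0.12 in the scar zone, and *MEF2A* was -0.04, or -0.05 with the smaller pseudocount, in the border zone. *MEIS1* did not pass the TPM filter, and without the filter it kept its sign. With sex as a covariate the scar zone slopes of *TBX5* and *HAND2* were -0.22 and -0.68, and the border zone difference of *MEIS1* relative to CM content was -0.11. The second CM list gave *TBX20* 0.03 in the scar zone and a border zone slope of -0.03 for *NKX2-5*.

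With 1 pig left out, sign changes in the border zone were *GATA4* -0.03 (pig 2, range to 0.12), *GATA6* -0.08 (range to 0.22), *MEF2C* -0.05 (to 0.14), *MEIS1* -0.70 (to 0.48) and *MEIS2* -0.04 (to 0.14) without pig 11, and *TBX20* -0.06 and -0.05 (pigs 12 and 14, range to 0.11). Relative to CM content they were, in the border zone, *GATA6* -0.07 and -0.08 (pigs 4 and 11, range to 0.13) and *MEIS1* -0.04, -0.67 and -0.01 (pigs 4, 11 and 12, range to 0.38), and in the scar zone *GATA4* -0.01 (pigs 2 and 9, range to 0.15), *TBX20* 0.16 and 0.14 (pigs 2 and 4, range from -0.15) and *MEIS2* -0.02 (pig 9, range to 0.24). Between zones of IR pigs *TBX5* was 0.14 without pig 9 (range from -0.38). The border zone difference of the CM index ran from -0.03 to 0.13, negative without pig 11, 12 or 13 (-0.03, -0.02 and -0.02). Further sign changes follow by comparison. Relative to CM content in the border zone they were *MEF2A* -0.05, *MEIS2* -0.16 and *TBX20* 0.05 without pigs 9 and 11, and, with 1 pig left out, *GATA4* (to -0.04), *MEF2A* (to -0.07), *MEIS2* (to -0.09), *TBX5* (to 0.01), *TBX20* (to 0.13) and *MEF2C* (to 0.11). Between zones of IR pigs they were *GATA4* 0.03, *MEF2A* 0.05, *MEF2C* 0.13 and *MEIS2* 0.08 without pigs 9 and 11, *GATA6* 0.01, *MEF2C* 0.06 and *MEIS2* 0.05 without pig 11, and *GATA4*, *GATA6*, *MEF2A*, *MEF2C* and *MEIS2* (0.02 to 0.13) on TPM. In the interaction they were *MEF2C* 0.13 and *MEIS2* 0.02 without pigs 9 and 11, *GATA6* -0.01 without pig 9 or 14, *MEF2C* 0.06 and 0.09 without pig 11 or 13, and *MEF2C* 0.13 and *MEIS2* 0.03 on TPM. Scar zone slopes without pigs 9 and 11 were *GATA6* -0.25, *MEF2C* -0.10 and *MEIS2* 0.20, and with 1 pig left out *TBX20* 0.30 (pig 2), *GATA6* -0.01 and *MEIS2* 0.11 (pig 9) and *MEF2C* -0.14 (pig 14), and the within-pig slope of *MEIS2* was 0.32. Border zone slopes of each member except *GATA4* and *HAND2* turned sign under at least 1 setting. Between zones of sham pigs *TBX20* (-0.04), *HAND2* (to 0.06) and *MEF2C* (to 0.08) did so. The cause of these changes was not tested. At 9 to 463 estimated counts, *MEIS1* is the member whose values depth limits most.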
